A study of Homo sapiens with 6 samples.

Results

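The genes described here are the ZNF genes, named with ZNF and a number, whose RNA was well expressed in 5637, a human bladder cancer cell line. They were chosen by symbol and by a mean of at least 10 in the 3 control libraries, on the deposited scale of reads relative to a scaled library size (a CPM-like scale). Of 447 such symbols among the 13271 genes of the table, 223 met this level. Of the 223, 219 are annotated as protein coding, and 4 (ZNF252P, ZNF271P, ZNF767P and ZNF826P) are pseudogenes. The control levels chose the members, so they are given as a description and support nothing. ZNF347, ZNF414 and ZNF620 lay just inside the threshold, with control means of 10.01, 10.02 and 10.06. ZNF175, ZNF765 and ZNF616 lay just outside it, at 9.95, 9.92 and 9.91.

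All 6 libraries were made from 5637 cells that a lipid reagent transfected at 50% confluency and that were lysed 48 h later. The 3 control libraries came from cells given an empty vector, and the 3 MAT1A libraries from cells transfected to overexpress MAT1A, the gene of the methionine adenosyltransferase of liver. Whether the replicates of a group were grown apart is not in the labels, and each p-value therefore rests on library-to-library spread that may be technical. The comparison asks which transcripts differed after MAT1A was introduced.

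Libraries held 17.4 to 21.6 M reads by the spacing of their low values. MAT1A itself stood at 1.09, 0.253 and 4.54 under control and at 1805, 1834 and 1917 under MAT1A, libraries 1, 2 and 3 in order here and below. All 10 urothelial and epithelial markers looked for were listed, with summed values of 11380 to 11668 in control and 12157 to 13370 in MAT1A libraries (6 of 10 higher, 0 lower). Of 7 leukocyte and endothelial markers only VWF had a row, at 0.579 to 1.13. Skeletal muscle markers, of which 14 of 15 were listed, summed to 494, 158 and 97.1 under control and to 94.97, 46.4 and 43.4 under MAT1A (13 of 14 lower). Both lists moved with the groups, and their part in the results below was not tested. Without control 1, the library where the muscle markers were highest, the median log2 change of the 223 genes was -0.056, against -0.055 with it, and 21 were called lower, against 30. The muscle sums of the remaining libraries still did not overlap between the groups. This omission therefore cannot separate the marker shift from the changes of the members.

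Zinc finger proteins of this kind fold short loops around zinc ions by means of paired cysteines and histidines (C2H2), and each finger reads a few bases of DNA. Many also carry a KRAB domain, which recruits the corepressor TRIM28 and, through it, the histone methyltransferase SETDB1 to form heterochromatin, often over mobile elements. Many of the genes lie in clusters on chromosome 19 that arose by duplication. Other ZNF genes encode activators, chromatin cofactors or RNA-binding proteins.

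Upstream sequences are shown first for members at the ends of the range of change, because genes that moved together can be compared there. RefSeq windows (GRCh38.p14) of 250 bases before the start were matched by symbol for 191 of the 223 members and 10042 of all 12866 tested genes. The RefSeq start lay over 250 bases from the GENCODE 29 start in 45 of the 191, so some windows are not upstream by both annotations. ZNF45, ZNF844 and ZNF283 had the 3 largest falls, and ZNF761 was the only member called higher. Capitals mark the 11-base core of the element bound by ZNF143, in which 1 base is free, and CCGGAAG, the core of ETS sites, on either strand. The ZNF45 window is chr19:43935283-43935532 on the minus strand. Those of ZNF844, ZNF283 and ZNF761 are chr19:12064481-12064698, chr19:43827071-43827291 and chr19:53431734-53431983 on the plus strand. Those of ZNF844 and ZNF283 are printed up to the GENCODE start, 218 and 221 bases.
ZNF45: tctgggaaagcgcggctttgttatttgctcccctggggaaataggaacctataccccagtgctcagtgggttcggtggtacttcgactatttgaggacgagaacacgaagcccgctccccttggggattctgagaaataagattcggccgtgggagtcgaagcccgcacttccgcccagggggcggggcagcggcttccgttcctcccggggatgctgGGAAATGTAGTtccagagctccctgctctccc
ZNF844: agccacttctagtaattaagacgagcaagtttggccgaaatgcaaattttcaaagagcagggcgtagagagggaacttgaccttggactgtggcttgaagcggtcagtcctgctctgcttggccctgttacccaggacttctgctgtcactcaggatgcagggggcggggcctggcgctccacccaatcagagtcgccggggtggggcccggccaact
ZNF283: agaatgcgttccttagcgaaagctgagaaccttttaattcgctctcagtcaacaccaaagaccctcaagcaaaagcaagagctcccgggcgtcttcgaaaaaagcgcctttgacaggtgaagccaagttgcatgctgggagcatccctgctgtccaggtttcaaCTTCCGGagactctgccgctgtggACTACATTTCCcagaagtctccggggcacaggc
ZNF761: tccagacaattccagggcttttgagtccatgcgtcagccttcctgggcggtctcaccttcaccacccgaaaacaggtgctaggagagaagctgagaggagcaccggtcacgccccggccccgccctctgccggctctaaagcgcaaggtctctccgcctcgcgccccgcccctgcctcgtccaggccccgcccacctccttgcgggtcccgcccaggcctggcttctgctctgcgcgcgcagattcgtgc

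The ZNF143 core stood in the windows of ZNF45 and ZNF283, that of ZNF283 also held CCGGAAG, and neither motif stood in those of ZNF844 and ZNF761. Across all members with a window, the ZNF143 core was found in 19 of 191 (9.95%), against 186 of 10042 tested genes (1.85%). CCGGAAG was found in 58 of 191 members (30.4%), against 1646 of the 10042 (16.4%). The ZNF143 core was added to the search after the windows of the largest falls had been read. Among the 19 members with the ZNF143 core, 5 were called lower and the median log2 change was -0.080. Among the 172 without it, 21 were called lower and the median was -0.050. Over all members 13.5% were called lower, beside 7.40% of all tested genes. The 5 include ZNF45 and ZNF283, which are among the largest falls, and the core was added after such windows were read. This split by call and change therefore supports nothing. ZNF143, which encodes the factor that binds this element, had 24.4, 25.2 and 25.8 under control and 24.4, 23.0 and 24.7 under MAT1A, and was not called (log2 change -0.063, limma adjusted p = 0.510). A match is a description of letters, not a shown binding site.

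Of the 5 members called lower that hold the element, 4 are shown with 15 bases on each side, read on the strand where it begins with ACTACA. They lie at chr19:43935289-43935329 (ZNF45), chr19:43827244-43827284 (ZNF283), chr19:36687476-36687516 (ZNF567) and chr5:178730759-178730799 (ZNF354A). The fifth, ZNF140, is not printed, because its RefSeq start lies 1085 bases from its GENCODE start and the element falls inside a GENCODE exon.
ZNF45: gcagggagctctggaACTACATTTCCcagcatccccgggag
ZNF283: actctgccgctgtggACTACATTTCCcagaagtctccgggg
ZNF567: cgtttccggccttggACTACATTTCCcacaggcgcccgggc
ZNF354A: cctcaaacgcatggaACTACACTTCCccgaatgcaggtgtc

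In ZNF45, ZNF283 and ZNF567 the 11 capital letters were the same, while ZNF354A differed from them at the base that the motif leaves free. The middle of the element lay 27 bases before the RefSeq start in ZNF45, 57 in ZNF283, 116 in ZNF567 and 120 in ZNF354A. It ran on the strand of the gene in ZNF283 and ZNF354A and on the opposite strand in ZNF45 and ZNF567. ZNF354A and ZNF140 are named for their sequence, after their values were seen. Neither passed when control 2, control 3 or MAT1A 2 was omitted, nor did ZNF354A when MAT1A 1 and ZNF140 when MAT1A 3 was (limma adjusted p up to 0.107 in both).

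Far more of the 223 members fell than rose after MAT1A transfection, and most changes were small. A change is the MAT1A mean minus the control mean of log2(value + 1). It was tested with limma over the 12866 genes that reached 1 in 3 or more libraries, and called at a Benjamini-Hochberg adjusted p under 0.05. Of the 223, 30 fell (13.5%) and 1 rose (0.448%), beside 7.40% lower and 4.01% higher among all tested genes and 7.67% and 4.86% among the 9145 other genes with a control mean of at least 10. At an unadjusted p under 0.05, 59 members were lower (26.5%) and 2 higher (0.897%), beside 14.2% and 12% of all tested genes and 14.7% and 14.4% of those other genes. The median log2 change was -0.055 for the members, 0.004 for all tested genes and 0.009 for those other genes. Below 0 lay 162 members (72.6%) and 46.2% of the other genes. Without control 3 the count of members that fell was 16, and 15 of the 30 passed in each of the 6 fits that omit a library. With the replicate number as a block 41 fell and 1 rose, beside 10.4% and 7.57% of all tested genes.

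The rule reads the control mean, which also enters the difference, so a member near the threshold can be in the set through high control values alone. With members chosen by the mean over all 6 libraries, 26 of 219 were called lower and 1 higher, with a median of -0.049. Chosen by the MAT1A mean, which leans the other way, 22 of 213 were called lower and 2 higher, with a median of -0.046.

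**Figure D1:**
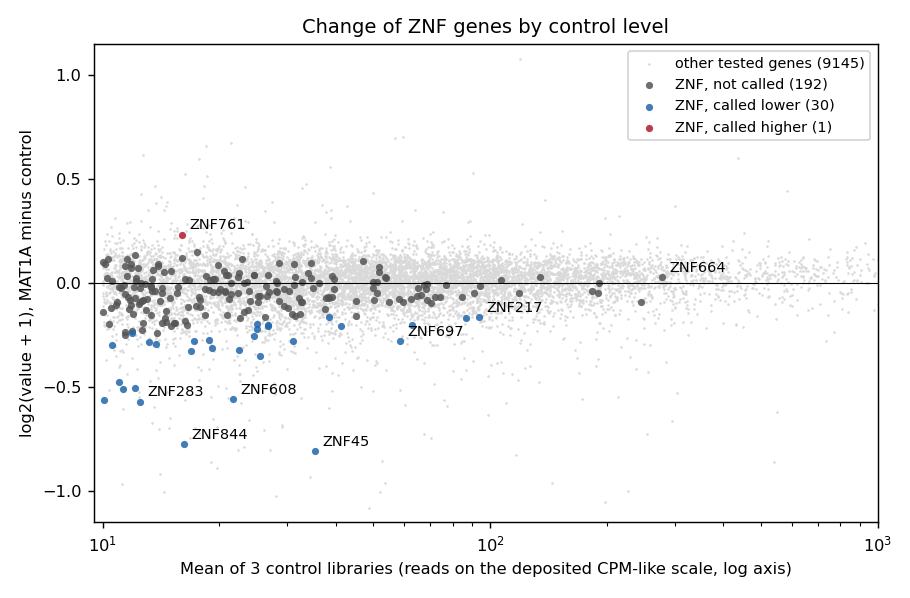
Mean of the 3 control libraries (x, log axis, reads on the deposited scale) against the log2(value + 1) change, MAT1A minus control (y), for the 223 ZNF genes and, in pale grey, other tested genes within the axes. The 30 members called lower (blue) reach -0.81 for ZNF45, and the 1 called higher (red), ZNF761, is at 0.23.

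The share of members that fell was above that of other genes in each class of level, a description with no test. Among members with a control mean of 10 to 20, 14 of 105 fell (13.3%), beside 6.65% of 1534 other genes. Between 20 and 40, 11 of 75 fell (14.7%), beside 7.71% of 2152. At 40 or more, 5 of 43 fell (11.6%), beside 7.93% of 5459. In these 3 classes 1, 0 and 0 members rose (0.952%, 0% and 0%), beside 2.41%, 2.93% and 6.30% of other genes. The highest class held 5459 of the 9145 other genes but 43 of the 223 members. The shares of rises over all members and all those other genes are therefore not at like level. The median of all 223 members lay 0.056 on the log2 scale below the mean of the other genes' class medians, weighted by the number of members in each class.

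The 5th, 25th, 75th and 95th percentiles of the member changes were -0.31, -0.14, 0.007 and 0.092, beside -0.21, -0.060, 0.065 and 0.14 for other genes with a control mean of at least 10. In 73 members (32.7%) every MAT1A value was below every control value, as in 15.6% of all tested genes and 15.7% of the other genes of that level. In 6 (2.69%) every MAT1A value was above, as in 14.7% and 17.0%. In the remaining 144 the groups overlapped.

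**Figure D2:**
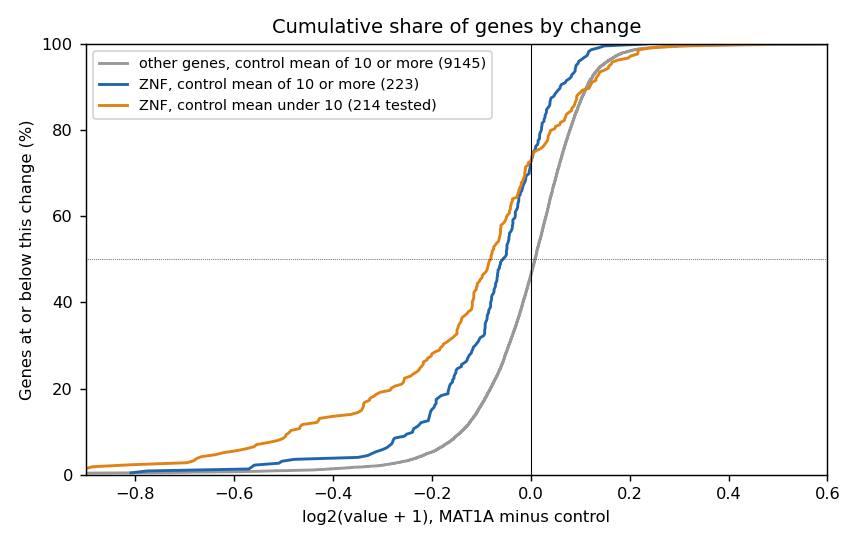
Cumulative share of genes (y, %) by log2(value + 1) change, MAT1A minus control (x), for ZNF genes with a control mean of 10 or more (blue), ZNF genes below 10 (orange) and other genes of 10 or more (grey). The blue curve crosses 50% at -0.055 and the grey one at 0.009.

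ZNF45, on chromosome 19 at 43912629 to 43935278 (GENCODE 29, GRCh38), had the largest fall. It encodes a C2H2 protein with 15 finger motifs. Its values were 33.5, 36.8 and 35.6 under control (libraries 1, 2, 3) and 17.9, 19.8 and 21.6 under MAT1A. The groups were far apart, with means of 35.3 ± 1.71 and 19.8 ± 1.87 (SD, n = 3). The log2 change was -0.81 ± 0.07 (SE), with limma's adjusted p at 2.8e-07. Only 0.337% of the 36-base windows of its longest transcript occur in a transcript of another gene, and the reads were 36 bases long.

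ZNF844, a KRAB-type gene on chromosome 19 at 12064699 to 12081565, was next. It had 14.6, 15.5 and 18.6 under control and 8.25, 8.94 and 9.93 under MAT1A. All 3 MAT1A values were below the lowest control value (log2 change -0.78 ± 0.09, SE; adjusted p = 2.1e-05). For this gene 11.8% of windows were shared with other genes, and the reads from those stretches are uncertain.

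ZNF283 is the neighbour of ZNF45 among the members, on chromosome 19 at 43827292 to 43852017. Its values were 11.5, 12.4 and 13.6 under control and 8.30, 7.50 and 8.39 under MAT1A (log2 change -0.57 ± 0.08, SE; adjusted p = 0.00020). ZNF620, on chromosome 3 at 40477131 to 40518736, fell from 9.18, 10.6 and 10.4 to 5.93, 6.22 and 7.32 (-0.56; adjusted p = 0.00062). It shares 227 exon bases with ZNF619 on the same strand, and ZNF619 was not called (log2 -0.098, adjusted p = 0.599). In both genes every MAT1A value was below every control value.

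ZNF608, on chromosome 5, holds a single finger motif and no KRAB-like match. It fell from 20.5, 22.7 and 21.9 to 14.9, 13.5 and 14.8 (log2 change -0.56 ± 0.07, SE; adjusted p = 2.5e-05), and 0% of its windows were shared. ZNF670, a KRAB-type gene on chromosome 1, fell from 11.1, 10.9 and 11.9 to 7.28, 8.02 and 7.65 (-0.51; adjusted p = 0.00038).

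ZNF329 fell from 13.4, 11.1 and 11.8 to 7.12, 8.63 and 9.04 (log2 change -0.50; adjusted p = 0.0021). ZNF567 fell from 10.6, 11.5 and 10.9 to 6.68, 8.17 and 8.07 (-0.48; adjusted p = 0.0017). Both are on chromosome 19, and in both the groups were apart. ZNF22, on chromosome 10, fell from 24.8, 24.8 and 26.7 to 21.2, 18.1 and 20 (-0.35; adjusted p = 0.0019). Of its windows 43.3% were shared with other genes, and it overlaps 796 exon bases of the pseudogene CEP164P1 on the opposite strand, so its value is uncertain. ZNF267, on chromosome 16, fell from 17.1, 17.2 and 16.6 to 13.6, 13.4 and 12.96 (-0.33; adjusted p = 0.0030). All 10 of these falls stayed called under each of the 15 alternative fits that were run. The other 20 members called lower had log2 changes between -0.32 and -0.16, and in all 30 the groups did not overlap.

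**Figure D3:**
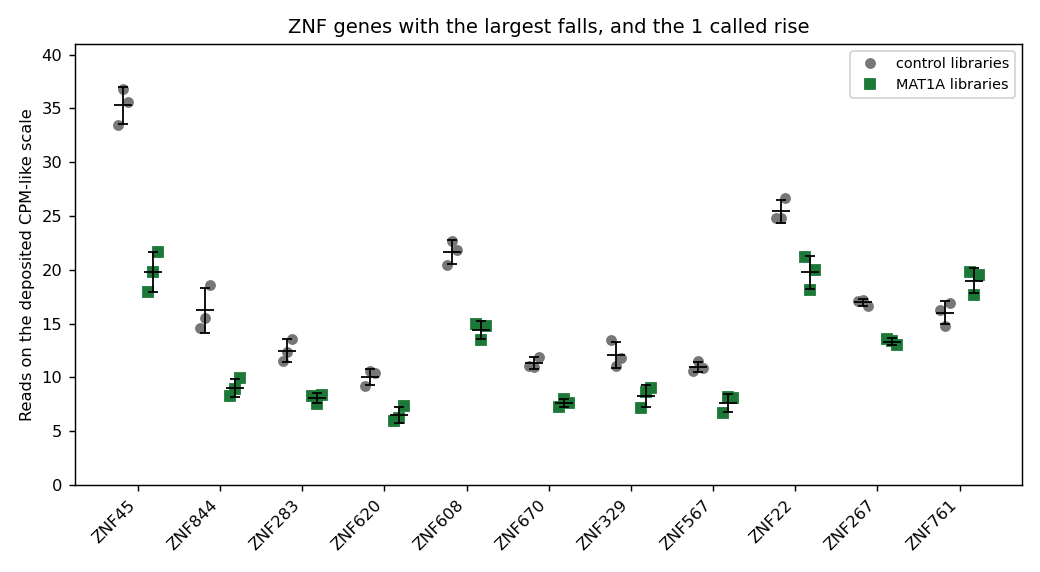
Values of the 10 ZNF genes with the largest falls and of ZNF761 (y, reads on the deposited scale, linear from 0), 1 point per library (circles control, squares MAT1A) with mean ± SD over 3 libraries. ZNF45 goes from 33.5 to 36.8 in control down to 17.9 to 21.6 in MAT1A libraries.

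A single member rose. ZNF761, a KRAB-type gene with 17 finger motifs on chromosome 19, had 16.2, 14.8 and 16.9 under control and 19.8, 17.6 and 19.5 under MAT1A (log2 change 0.23 ± 0.07, SE; limma adjusted p = 0.0418). The groups were apart by a narrow margin, from 16.9 to 17.6. The call was lost without control 1, 2 or 3, without MAT1A 1 or MAT1A 3 and with library size taken without MAT1A (adjusted p up to 0.158). Of its windows 22.5% were shared with other genes. The next members by p above 0 were ZNF395 (log2 change 0.11, adjusted p = 0.152), ZNF358 (0.15, 0.191), ZNF830 (0.11, 0.223) and ZNF706 (0.097, 0.229), and none passed.

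Among ZNF proteins known as chromatin cofactors, 5 of 11 tested genes fell (45.5%) and 0 rose, with a median log2 change of -0.13. Beside this stood 13.5% lower among all members, and 7.40% lower and 4.01% higher among all tested genes. The list is short, was drawn with earlier results of these data known, and was not tested as a set. ZNF217, an oncogene product found in a corepressor complex with demethylase activity, had 93.4, 93.1 and 94.2 under control and 83.7, 81.8 and 84.9 under MAT1A. The groups were separate and tight, and the change was small (log2 -0.16 ± 0.04, SE; adjusted p = 0.0060). ZNF827, which recruits the NuRD complex to telomeres, fell from 31.0 ± 0.43 to 25.4 ± 1.64 (SD, n = 3; log2 change -0.28). ZNF274, a KRAB protein that binds the 3′ ends of other zinc finger genes and brings SETDB1 there, stood at 25.02, 25.3 and 23.6 under control and at 20, 20.04 and 21.4 under MAT1A. This was a log2 change of -0.26 (adjusted p = 0.0093).

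ZNF687 went from 41.2 ± 0.77 to 35.6 ± 1.52 (SD, n = 3; log2 change -0.21, limma adjusted p = 0.0109), a fall that did not pass once control 1 was omitted (0.0560). PI4KB, with which it shares 384 exon bases on opposite strands, was not called (log2 change -0.090, adjusted p = 0.190). ZNF462, the member with the most finger motifs (33), fell from 86.9 ± 5.49 to 77.4 ± 4.82 (log2 change -0.17, adjusted p = 0.0432). It did not pass when control 1, control 3, MAT1A 1 or MAT1A 2 was omitted (adjusted p up to 0.220). ZNF592 (-0.049) and ZNF644, a partner of the methyltransferase G9a (-0.066), were not called.

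Of 11 tested ZNF genes whose products bind gene promoters, 1 fell (9.09%) and 0 rose, beside 7.40% and 4.01% of all tested genes. ZNF281, a stem cell and epithelial transition regulator, had 60.8, 63.4 and 64.1 under control and 53.2, 54.6 and 55.4 under MAT1A (log2 change -0.20 ± 0.04, SE; adjusted p = 0.0039). Its groups did not overlap. ZNF24 went from 70.4 ± 3.12 to 66.0 ± 5.57 (SD, n = 3) and ZNF335 from 58.1 ± 1.46 to 54.9 ± 0.29, and neither was called. Without MAT1A 3, ZNF24 was called lower (log2 change -0.16, adjusted p = 0.0442).

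Of 11 tested ZNF genes of RNA, ribosome or spindle function, 0 passed in either direction with limma. Among all tested genes 7.40% were lower and 4.01% higher. At an unadjusted p under 0.05, 1 of the 11 was lower and 0 higher. ZNF207, whose product BuGZ helps load the checkpoint protein BUB3 on kinetochores, stood at 243, 244 and 247 under control and at 233, 230.1 and 226 under MAT1A. The groups did not overlap, and the log2 change of -0.091 missed the threshold (adjusted p = 0.0597; 0.0215 with the replicate number as a block; it was also called with library size taken without MAT1A). ZNF106 was at 190.9 ± 1.54 and 191 ± 17.1 (adjusted p = 0.994). Of 3 tested genes tied to epithelial cells, ZNF217 fell, while ZNF185, which encodes an actin-binding LIM protein, went from 184 ± 3.04 to 179 ± 2.07 (log2 change -0.036) and ZNF703 from 45.1 ± 1.23 to 42.4 ± 2.47 (-0.087), neither called.

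The members with the most reads did not pass. By the control mean these were ZNF664 (277), ZNF207 (245), ZNF106 (191), ZNF146 (190.0) and ZNF185 (184). Per kilobase of exon the order was different, with ZNF146 at 45.8, ZNF664 at 43.8 and ZNF185 at 38.1, and ZNF106 and ZNF207 at 15.6 and 15.4. ZNF664 stood at 278, 275 and 280 under control and 293, 270.2 and 287 under MAT1A, and ZNF146 at 191, 184 and 195 and at 183, 175 and 193. In both genes the groups overlapped.

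On chromosome 19, which holds 89 of the 223 members, 10 fell and 1 rose, with a median log2 change of -0.079. On the other chromosomes 20 of 134 fell and 0 rose, with a median of -0.045. Of 488 other genes on chromosome 19 with a control mean of at least 10, 21 were lower and 28 higher, with a median of 0.032. Over all members 13.5% fell and 0.448% rose, beside 7.40% and 4.01% of all tested genes. The 10 falls of members on chromosome 19 lay in 4 of 15 clusters with members, defined by gaps of at most 500000 bases between listed ZNF genes. The 34 ZNF genes under the threshold that fell, described below, do not enter these counts, wherever they lie. In the cluster from 36182060 to 37817300, for example, only 5 of 25 listed ZNF genes are members, and 1 of the 5 fell. Such a count describes the members and not the cluster, most of whose ZNF genes it leaves out.

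Within the clusters given here, members that were called lay beside members that were not. Neighbours under the level threshold were not looked at here, so whether all ZNF genes of a cluster changed together was not tested. In the cluster from 43596392 to 44500524, ZNF283 and ZNF45 lie next to each other among the members and both fell, while the other 7 members had log2 changes between -0.24 (ZNF227, adjusted p = 0.0708) and 0.12 (ZNF576, adjusted p = 0.406). In the cluster from 11483427 to 12640098, ZNF844 and its neighbour among the members, ZNF44, fell by 0.78 and 0.30 on the log2 scale, and the other 4 members lay between -0.21 and 0.047. ZNF44, named for its place after its values were seen, passed in only 1 of the 6 fits that omit a library, the one without MAT1A 3 (adjusted p up to 0.143 in the others). In the last cluster, from 57191500 to 58481230, 5 of 18 members fell: ZNF134, ZNF211, ZNF776, ZNF329 and ZNF274. Of these, ZNF134 passed in 2 of the 6 fits that omit a library (adjusted p up to 0.107), failing without control 1, control 3, MAT1A 1 or MAT1A 2. ZNF776 passed in 3 of 6, failing without control 2, control 3 or MAT1A 1 (up to 0.0974), and ZNF211 failed without control 3 (0.0914). In the cluster with the most listed ZNF genes after the last one, from 51571298 to 53580269, 0 of 15 fell, and ZNF761 rose. Cluster counts are small and were not tested against the 13.5% of all members, or the 7.40% of all tested genes, that fell.

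**Figure D4:**
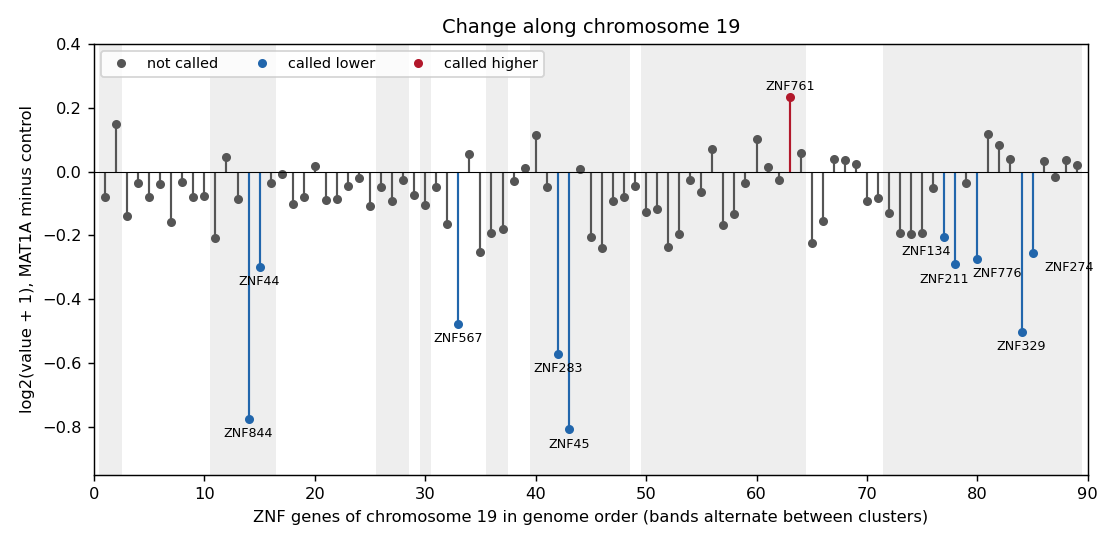
Log2(value + 1) change, MAT1A minus control (y), of the 89 ZNF genes of chromosome 19 in genome order (x), with bands that alternate between clusters. Only members are drawn. The 10 called lower (blue) include adjacent members, such as ZNF844 and ZNF44 or ZNF283 and ZNF45, and the 1 called higher (red) is ZNF761.

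A KRAB-like stretch was searched for with 1 fixed pattern of residues. It was found in the translated GENCODE 29 coding sequence of 93 members, and 126 with a coding sequence had no match. A KRAB domain that departs from the pattern counts as no match, so the groups do not sort KRAB genes from others cleanly. Of the former 16 fell (17.2%) and 1 rose, with a median log2 change of -0.069. Of the latter 14 fell (11.1%) and 0 rose, with a median of -0.049. By finger motifs, 4 of 26 members with 0 to 3 fell, 9 of 81 with 4 to 9, and 17 of 112 with 10 or more, with medians of -0.032, -0.055 and -0.072. Beside these stood 13.5% lower and 0.448% higher among all members, and 7.40% and 4.01% among all tested genes. The difference between these groups was not tested.

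The members were poorer in GC than other genes of their level, with a median of 44.2% in the longest transcript against 47.7%. Members at or below the member median had 18 of 112 called lower (16.1%) and a median log2 change of -0.081. Other genes of such GC and a control mean of at least 10 had 378 of 3351 lower (11.3%) and a median of -0.028. At this GC 1 member rose (0.893%), beside 1.82% of those other genes. Above the member median GC, 12 of 111 members fell (10.8%), beside 323 of 5790 other genes (5.58%), with medians of -0.026 and 0.027. There 0 members rose, beside 6.61% of those other genes. After removal of a length and GC trend from every library, 32 members fell and 1 rose, beside 8.80% and 5.94% of all tested genes, and the median was -0.044. Across the 223 members the log2 change had a Pearson r of 0.19 with GC and 0.051 with log2 exon length, a description over genes that share libraries.

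Falls were counted by shared sequence as well. Of 115 members with under 5% of windows shared, 16 fell, and of 108 with 5% or more, 14 fell. Of 119 members whose exons overlap no other gene 16 fell (13.4%), and of 104 with some overlap 14 fell (13.5%). All these shares lie near the 13.5% of all members, beside 7.40% of all tested genes. The 4 pseudogenes were not called, with log2 changes between -0.026 and 0.060.

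**Figure D5:**
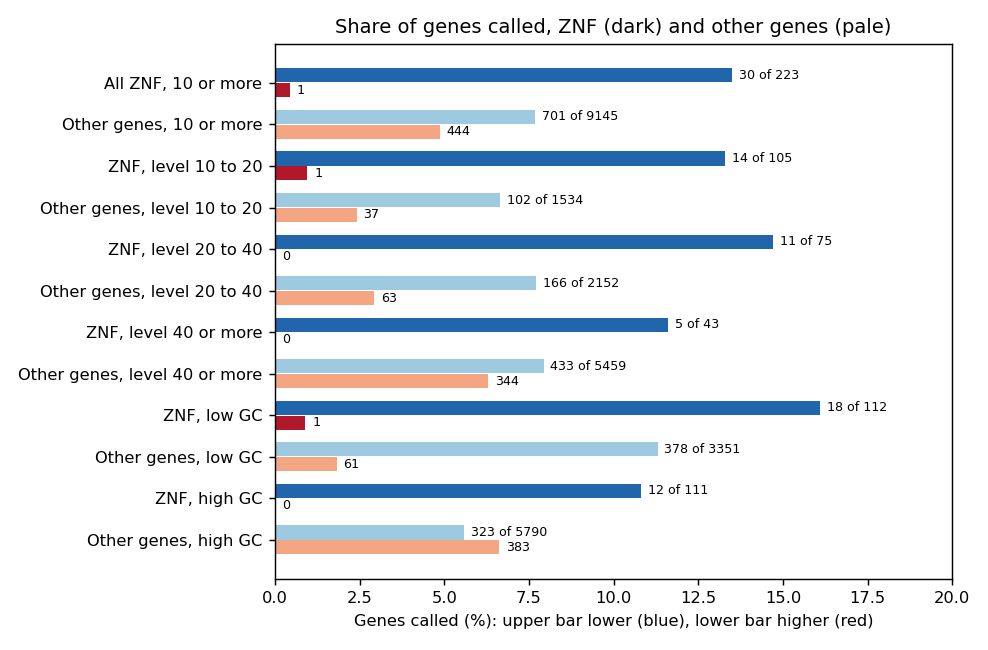
Percent of genes called lower (blue, upper bar) and higher (red, lower bar) among ZNF genes (dark) and other genes (pale) with a control mean of 10 or more, in all, by class of control mean and by GC above or below the member median of 44.2%. For all ZNF genes 30 of 223 are lower and 1 higher.

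The members together made up a small share of each library. Their summed values were 7245, 7175 and 7266 under control and 6941, 6776 and 7061 under MAT1A. The MAT1A sums were all below the control sums, with means of 7229 ± 47.8 and 6926 ± 143 (SD, n = 3), or 0.723% ± 0.0069 and 0.686% ± 0.018 of the column. With the 30 called genes left out the means were 6389 ± 42.1 and 6241 ± 122, and the groups then overlapped, since MAT1A 3 (6354) lay above control 2 (6340). MAT1A 2 had the lowest sum and MAT1A 3 the highest of its group.

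The ZNF genes below the level threshold leaned the same way. Of 224, 214 passed the filter on low values. Of the 214, 34 fell (15.9%) and 2 rose (0.935%), beside 7.40% and 4.01% of all tested genes, with a median log2 change of -0.081. Some fell further than any member, such as ZNF570 (log2 change -1.16) and ZNF569 (-0.90), named after their values were seen. The medians of 4 related families were below 0 as well. The 15 ZSCAN symbols, named for a SCAN domain, include the pseudogene ZSCAN12P1. Of the 15, 0 passed with limma in either direction (2 lower and 1 higher at an unadjusted p under 0.05), with a median of -0.042 and 10 below 0. Of 7 ZKSCAN genes 0 passed with limma (1 lower and 0 higher unadjusted), with a median of -0.044 and 6 below 0. Of 40 genes with ZBTB symbols, most of which encode BTB-domain zinc finger proteins, 5 fell (12.5%) and 0 rose, with a median of -0.053. The 40 were taken by symbol and include ZBTB11-AS1, ZBTB8OS and ZBTB8OSP2, which are not such genes and were not called.

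Of 15 ZFP symbols 5 fell (33.3%) and 0 rose, beside 7.40% and 4.01% of all tested genes, with a median of -0.12. The 5 were ZFP30, ZFP82 and the 3 genes ZFP36, ZFP36L1 and ZFP36L2, whose products bind AU-rich elements of mRNA and are not C2H2 factors. ZFP30, a KRAB zinc finger gene named after its values were seen, had 18.1, 17.3 and 19.4 under control and 7.06, 6.37 and 8.25 under MAT1A. The groups were wide apart, and the log2 change of -1.23 ± 0.09 (SE; limma adjusted p = 4.2e-08) was larger than that of any of the 223 members.

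Most genes through which KRAB proteins act were not called. Of 28 tested genes of the corepressor list, 1 fell (3.57%) and 0 rose, with a median log2 change of -0.008. Among all tested genes 7.40% were lower and 4.01% higher, so counts this low in 28 genes do not set the list apart. TRIM28, the scaffold that binds KRAB domains, stood at 657, 669.9 and 686 under control and 683, 720.4 and 645 under MAT1A, with overlapping groups (adjusted p = 0.731). SETDB1, the methyltransferase it recruits, went from 36.3 ± 0.91 to 33.6 ± 1.38 (SD, n = 3; log2 change -0.11, adjusted p = 0.178). It was called when the block was joined to the length and GC correction (0.0477). ATF7IP, a partner that stabilises SETDB1, fell from 106, 107 and 106 to 93.6, 83.6 and 93.8 (log2 change -0.23 ± 0.04, SE; adjusted p = 0.0018), with every MAT1A value below the controls.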

How the data were processed

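The authors deposited 1 table whose values are a signal: reads per gene divided by a scaled library size, close to CPM (column sums 997732 to 1015443). Per the submitters' processing notes, the build was hg38 and the tools were edgeR, featureCounts and STAR 2.6.0c; no source used here gives their settings or annotation. Low values lie on an even spacing in each column, taken as 1 read for the depths; intervals and floors would cover counting error only.

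Changes were tested with limma 3.58.1 (intensity trend, R 4.3.3) on log2(value + 1), which understates changes of low genes, after a test on simulated data. Groups and numbers came from the sample titles. Libraries with the same number deviated together from their group means (correlations 0.25, 0.18 and 0.19 over 12866 genes), so they may pair the libraries, a reading from the data and not a label. The reported fit has no block, and a fit with the number as a block was an alternative.

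Members, lists, motifs and tests were chosen with earlier results of these data known. Named were the 10 largest called changes per direction, up to 5 genes by smallest p where fewer than 5 passed, the 5 highest control means, called and up to 2 uncalled genes per role list, the 3 genes on either side of the threshold, TRIM28, SETDB1 and called corepressors. Finger motifs (2 cysteines and 2 histidines at C2H2 spacing) and KRAB-like stretches were counted in translated GENCODE 29 coding sequences. The ZNF143 and ETS motifs reported were picked from 10 searched on both strands, and the former was added after the windows were read. They stood in 19.2% and 38.5% of 26 members called lower, and in 8.54% and 29.3% of 164 not called. GGGCGG (SP1 box), also searched, stood in 80.8% and 59.8%. CACGTG, TGACGTCA and AAGATGG stood in 0 of the 26, and in 6.71%, 4.88% and 3.66% of the 164. None of these differences was tested.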

Additional observations from a re-analysis of the deposited data

How the results depend on the processing

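The median log2 change of the 223 genes kept its sign under all alternatives run. It was -0.072 to -0.045 with 1 library left out, -0.044 with the length and GC trend removed, and -0.066 with library size taken without MAT1A. Each move was smaller than the spread between replicates (0.022). For the fits that omit 1 library this was nearly fixed in advance, because that spread comes from the same libraries, and nothing is drawn from it. The count of members lower, 30, was 16 at an adjusted p under 0.01, 48 with a control mean of at least 5 (328 members), 16 with at least 20 (118 members), and 16 to 33 with 1 library left out. The count of members higher, 1, was 0 at an adjusted p under 0.01, 0 with library size taken without MAT1A, 0 with a control mean of at least 20, 3 with at least 5, 2 with members chosen by the MAT1A mean, and 0 to 2 with 1 library left out. With the replicate block 41 members were lower and 1 higher, and all 31 called members stayed called. All 31 kept their sign under each of the 15 alternative fits, and 16 to 31 of them stayed called.

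Planned count models on rebuilt reads were not run, since the lowest listed value was 1 step in only 3 of the 6 columns. In each of the 6 columns, however, 100% of values lay within 0.01 steps of the even spacing, so this check was left undone rather than shown to be impossible. No member with a log2 change under 0.16 in size was called in the reported fit.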
